A study of Mus musculus and Homo sapiens with 4 samples.

Results

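The 10 genes described here are the 7 inhibitors of cyclin-dependent kinases (CDKs) of the Cip/Kip and INK4 families and the 3 D-type cyclins, measured in VCaP and VCaP ERα cells. An entry of the deposited values was assigned to a gene when its symbol field held that symbol, and the entry with the highest mean was kept for each symbol. The 10 symbols stood on 11 of the 25932 entries, with CDKN2A on 2. The files gave 1 RPKM value per entry, a read count scaled for transcript length and sequencing depth, which allows levels of different genes to be set beside each other. VCaP is an established prostate cancer cell line, here at passages 5 to 6 per the labels. Per the labels, VCaP ERα is the same line made to overexpress the oestrogen receptor ERα in a stable manner, at passages 4 to 5, and whether it was 1 clone or a pool was not given in the sources used here. The labels named no hormone treatment for either library, and both cultures were kept in the same serum-containing medium. Each condition gave 1 library, made from total RNA that had been depleted of ribosomal RNA. The labels describe them as stranded and poly-A-, although the protocol names only the ribosomal depletion, and the 10 genes are ones whose mRNAs carry poly-A tails. Without replicates, no value has an error and no difference was tested. The 2 mouse fibroblast libraries of the series were not part of this comparison.

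D-type cyclins bind CDK4 and CDK6, and the complexes phosphorylate the retinoblastoma protein, which releases E2F factors and lets a cell pass from G1 into S phase. INK4 proteins bind CDK4 and CDK6 and keep cyclins off, whereas Cip/Kip proteins bind cyclin-CDK complexes, block CDK2 and can also help to assemble D-type cyclins with their kinases. In prostate and breast epithelium CCND1 is a known relay of steroid hormone and growth factor signals, and CDKN1A is known for holding cells in G1 after DNA damage.

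The libraries differed in ways that touch every value below. ESR1, the gene of ERα, had 15.7 RPKM in the library labelled VCaP against 209 RPKM in VCaP ERα, and the entry NCRNA00084, an older symbol of NEAT1, had 26.6 and 53.4 RPKM. Of 12 prostate luminal marker genes, 6 reached 1 RPKM in the library labelled VCaP and 12 did in VCaP ERα. Their summed level was 26.3 RPKM against 2315 RPKM, and all 12 were higher in VCaP ERα. KLK2 had 0.0264 and 452 RPKM, HOXB13 had 0.0479 and 54.6 RPKM and ERG had 0.0764 and 104 RPKM. FOLH1 was listed at 0 in the library labelled VCaP. Of 8 luminal breast marker genes, 7 reached 1 RPKM in the library labelled VCaP and 4 did in VCaP ERα, with summed levels of 3980 and 199 RPKM and AREG listed at 0 in VCaP ERα. The 5 basal epithelial markers summed to 50.1 and 2.85 RPKM, of which KRT17 alone had 38.9 and 0.774 RPKM. They did not share 1 direction. KRT17, KRT6A and TP63 were lower in VCaP ERα. KRT5 (0.0259 and 0.623 RPKM) and KRT14 (listed at 0 in the library labelled VCaP, 1.19 RPKM in VCaP ERα) were higher there, at low levels. The highest marker of stroma, leukocytes or endothelium was at 0.805 RPKM there and at 1.18 RPKM in VCaP ERα. The library labelled VCaP thus had low prostate markers and high luminal breast markers, which goes against its label. These markers separate the libraries in the same way for each gene below, and their part in the differences was not tested. The log2 ratio of VCaP ERα over VCaP, computed after adding 1 RPKM to each value, had a median of -0.59 among the 9754 entries that reached 1 RPKM in each library. A log2 ratio from which this median was subtracted is called centred below.

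The 10 genes covered a wide span of levels in the library labelled VCaP and a narrower one in VCaP ERα. In the former they ran from 0.090 RPKM for CCND2 to 297 RPKM for CDKN1A, with a median of 8.88 RPKM, and the highest was 3300-fold above the lowest. In VCaP ERα they ran from 0.510 RPKM for CCND2 to 31.7 RPKM for CCND1, with a median of 3.22 RPKM and a span of 62.2-fold. At least 1 RPKM was reached by 6 of the genes in the library labelled VCaP and by 7 in VCaP ERα. CDKN2C and CCND2 were below 1 RPKM in both libraries.

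**Figure D1:**
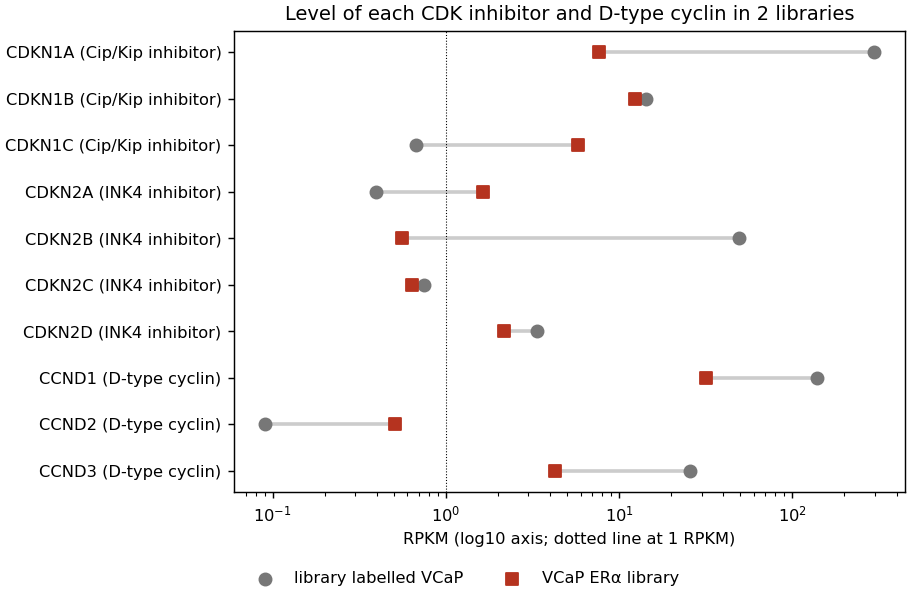
RPKM of the 10 genes (log10 axis) for the library labelled VCaP (grey circles) and for VCaP ERα (red squares), 1 library each, with no error bars because there are no replicates. CDKN1A and CDKN2B show the widest gaps, 297 against 7.71 RPKM and 49.3 against 0.558 RPKM, while CDKN1C, CDKN2A and CCND2 lie in the opposite order.

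Of the Cip/Kip inhibitors, CDKN1A was lower in VCaP ERα, CDKN1C was higher and CDKN1B lay at a similar level in both libraries. CDKN1A (chromosome 6, 36754437 to 36763087), which encodes p21, had 297 RPKM in the library labelled VCaP against 7.71 RPKM in VCaP ERα. It was 38.5-fold lower there, a log2 ratio of -5.10, or -4.51 when centred. It was the 105th highest of all entries in the library labelled VCaP and took rank 3731 in VCaP ERα, and its log2 ratio was the 69th lowest of all entries. In such bulk RNA, fewer cells with a transcript and less of it per cell cannot be told apart. CDKN1B (chromosome 12, 12761576 to 12766570), which encodes p27, had 14.4 RPKM in the library labelled VCaP against 12.4 RPKM in VCaP ERα. Its log2 ratio was -0.20 as deposited and 0.39 when centred, so its sign depended on the scaling of the libraries. Its rank went from 3618 to 2479 of 25932. CDKN1C (chromosome 11, 2861024 to 2863571), the imprinted gene of p57, had 0.677 RPKM in the library labelled VCaP against 5.79 RPKM in VCaP ERα, an 8.55-fold higher level with a log2 ratio of 2.02. Its rank was 12485 in the former and 4572 in the latter.

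The make-up of the Cip/Kip transcripts thus differed between the libraries. CDKN1A made up 95.2% of the summed RPKM of the 3 genes in the library labelled VCaP against 29.7% in VCaP ERα. CDKN1B made up 4.61% and 47.9%, and was the most abundant of the 3 in VCaP ERα. CDKN1C made up 0.217% and 22.3%. Within a library, which needs no scaling between libraries, the ratio of CDKN1A to CDKN1B was 20.6 in the library labelled VCaP against 0.620 in VCaP ERα.

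Of the INK4 inhibitors, CDKN2B was far lower in VCaP ERα, CDKN2A was somewhat higher, and CDKN2C and CDKN2D differed little. CDKN2B (chromosome 9, 21992902 to 21999312), which encodes p15 and is a known target of TGF-β signalling, had 49.3 RPKM in the library labelled VCaP against 0.558 RPKM in VCaP ERα. It was 88.4-fold lower in VCaP ERα, with a log2 ratio of -5.01 and of -4.42 when centred. It held rank 984 in the library labelled VCaP and rank 14890 in VCaP ERα. The TGF-β mediator SMAD3 had 47.6 RPKM in the library labelled VCaP against 0.752 RPKM in VCaP ERα (log2 ratio -4.80), whereas SMAD4 had 3.01 and 14.2 RPKM (1.92).

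CDKN2A encodes p16 and, from an alternative first exon, the protein ARF. Its entry with the longer span (21957751 to 21984490), described in the files as isoform 4, had 0.393 RPKM in the library labelled VCaP against 1.64 RPKM in VCaP ERα, which gave a log2 ratio of 0.92. Its entry with the shorter span (21957751 to 21965038), described as isoforms 1 and 3, was listed at 0 in the library labelled VCaP and had 1.15 RPKM in VCaP ERα. Both entries were thus low and lay in the opposite direction from CDKN2B, the next gene on the chromosome. The 2 CDKN2A entries overlap, and reads in their shared part may stand in both. The paralogues CDKN2A and CDKN2B could also share reads, and how such reads were counted was not given in the sources used here.

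The remaining INK4 genes were low in both libraries. CDKN2C (chromosome 1, 51206196 to 51212897), which encodes p18, had 0.751 RPKM in the library labelled VCaP against 0.635 RPKM in VCaP ERα, which gave a log2 ratio of -0.10 and of 0.49 when centred. CDKN2D (chromosome 19, 10538138 to 10540655), which encodes p19, had 3.37 and 2.17 RPKM, a log2 ratio of -0.46 and of 0.13 when centred. CDKN2D nevertheless had the largest share of the INK4 sum in VCaP ERα, with 43.4%, ahead of the longer CDKN2A entry with 32.8%. That sum counts this CDKN2A entry (isoform 4), which may be that of ARF and not of p16. The shorter CDKN2A entry (isoforms 1 and 3) is not in the sum. In the library labelled VCaP, CDKN2B alone made up 91.6% of that sum. The ratio of CDKN2B to CDKN2D was 14.6 in the library labelled VCaP against 0.257 in VCaP ERα.

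Of the D-type cyclins, CCND1 and CCND3 were lower in VCaP ERα, and CCND2 was low in both libraries. CCND1 (chromosome 11, 69165054 to 69178423), the gene of cyclin D1, had 139 RPKM in the library labelled VCaP against 31.7 RPKM in VCaP ERα. It was 4.38-fold lower in VCaP ERα, with a log2 ratio of -2.10 and of -1.51 when centred. It was the most abundant of the 10 genes in VCaP ERα, where it took rank 967 against rank 238 in the library labelled VCaP. CCND3 (chromosome 6, 42010649 to 42124404), the gene of cyclin D3, had 25.7 and 4.28 RPKM and was 6.02-fold lower in VCaP ERα (log2 ratio -2.34, centred -1.75). CCND2 (chromosome 12, 4253199 to 4284777), the gene of cyclin D2, had 0.090 and 0.510 RPKM, a log2 ratio of 0.47. Its ranks of 15536 and 15290 were close to each other.

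In contrast to the inhibitors, the D-type cyclins kept a similar make-up. CCND1 made up 84.3% of their summed RPKM in the library labelled VCaP against 86.9% in VCaP ERα, CCND3 15.6% and 11.7%, and CCND2 0.0546% and 1.40%. The ratio of CCND1 to CCND3 was 5.40 in the library labelled VCaP against 7.41 in VCaP ERα.

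Summed by family, each of the 3 groups was lower in VCaP ERα. The Cip/Kip genes summed to 312 RPKM in the library labelled VCaP against 25.9 RPKM in VCaP ERα (12.0-fold lower), the INK4 genes to 53.9 and 5.00 RPKM (10.8-fold lower) and the D-type cyclins to 165 and 36.5 RPKM (4.52-fold lower). The INK4 sum counts the longer CDKN2A entry, which may be that of ARF, and not the shorter one. In the library labelled VCaP the Cip/Kip and INK4 sums rested mostly on CDKN1A and CDKN2B, whereas in VCaP ERα CDKN1B and CDKN2D had the largest shares. Set against each other within a library, the sum of the D-type cyclins was 0.450 of that of the 7 inhibitors in the library labelled VCaP against 1.18 of it in VCaP ERα. The kinases that both families act on, CDK4 and CDK6, summed to 145 and 53.1 RPKM. The INK4 sum was 0.372 of the CDK4 and CDK6 sum in the library labelled VCaP against 0.0942 of it in VCaP ERα. The sum of the D-type cyclins was 1.14 and 0.687 of that kinase sum.

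Counted against the limit of the study, a log2 ratio above 2 was found for 1 of the 10 genes, CDKN1C, and a log2 ratio below -2 for 4, namely CDKN1A, CDKN2B, CCND3 and CCND1. Over all entries 2.27% were above 2 and 6.56% were below -2. CDKN1C at 2.02 and CCND1 at -2.10 were close to these limits. At limits of 1 and -1 the counts were again 1 and 4, against 9.16% and 18.5% of all entries. Many entries are near 0 in both libraries and could not pass any of these limits. Among the 13954 entries with at least 1 RPKM in 1 library, 4.21% were above 2, 12.2% were below -2, 17.0% were above 1 and 34.3% were below -1. Of the 10 genes 8 belong to these entries. The median log2 ratio of the 10 genes was -0.33, against 0 for all entries. For the 8 genes that reached 1 RPKM in 1 library it was -1.28, against -0.50 for all entries that did. After centring, 1 gene lay above 2 and 2 below -2 (CDKN1A and CDKN2B), while 3 lay above 1 and 4 below -1. The centred ratio was above 2 for 4.77% of all entries, below -2 for 3.35%, above 1 for 24.2% and below -1 for 10.4%. Among those that reached 1 RPKM in 1 library the shares were 8.87%, 6.22%, 26.8% and 19.2%. The 3 of 10 genes above 1 are thus close to the 24.2% of all entries. CCND2, 1 of these 3 genes, is not among the entries that reached 1 RPKM in 1 library.

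**Figure D2:**
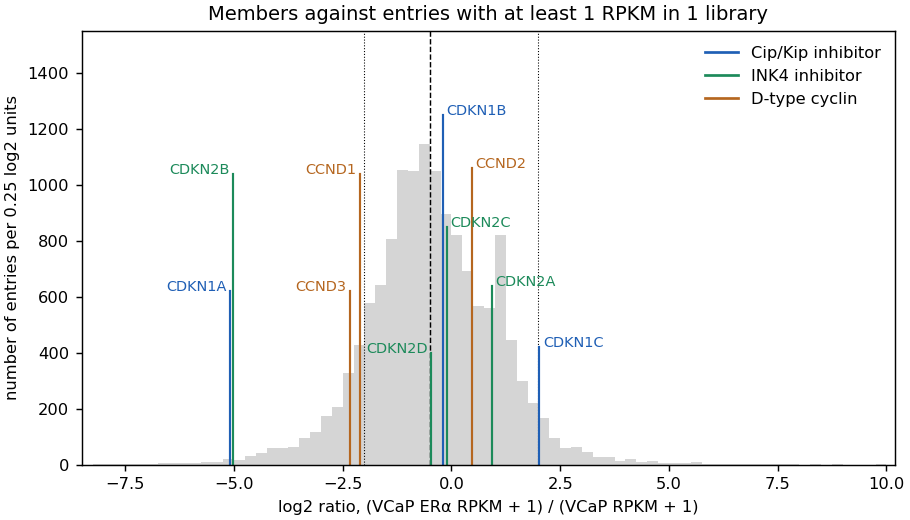
Log2 ratios of the 10 genes (coloured lines, whose heights carry no meaning) on the histogram of the 13954 entries with at least 1 RPKM in 1 library (grey; dashed line at their median of -0.50, dotted lines at -2 and 2). CDKN2C and CCND2 are drawn but are below that level; CDKN1A and CDKN2B lie in the far lower tail, CCND1 and CCND3 just below -2 and CDKN1C just above 2.

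The other genes of the pathway were described through 10 lists with 81 genes. Of the 81 genes, 61 (75.3%) were lower and 20 (24.7%) higher in VCaP ERα, against 64.0% and 36.0% of the entries that reached 1 RPKM in 1 library. A log2 ratio below -1 was found for 34 genes (42.0%) and above 1 for 7 (8.64%), against 34.3% and 17.0% of those entries, and the median of the list genes was -0.75. After centring, 22 genes (27.2%) lay below -1 and 13 (16.0%) above 1, against 19.2% and 26.8%, and the median was -0.16. The counts of single lists below are to be read against these same shares of entries. Among the partner kinases, CDK6 had 19.9 RPKM in the library labelled VCaP against 0.423 RPKM in VCaP ERα (log2 ratio -3.88), and CDK4 had 125 and 52.7 RPKM (-1.23). CDK1, the mitotic kinase, went the other way with 4.16 and 10.3 RPKM (1.13). The ratio of CDK4 to CDK6 was 6.27 in the library labelled VCaP against 124 in VCaP ERα.

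The other cyclins were CCNE1, CCNE2, CCNA1, CCNA2, CCNB1 and CCNB2. All 6 had a log2 ratio below 0 as deposited, of which 4 lay above 0 after centring, and 2 were below -1. These were CCNE1, a CDK2 partner of late G1, with 6.14 and 1.06 RPKM (-1.80), and CCNE2 with 5.32 and 1.24 RPKM (-1.50). The mitotic cyclins CCNB1 (21.0 and 17.2 RPKM) and CCNB2 (9.35 and 6.24 RPKM) had log2 ratios of -0.27 and -0.52, or 0.32 and 0.07 after centring. Of the pocket proteins, RB1 had 6.52 and 11.1 RPKM (0.69) and RBL2 had 18.0 and 5.63 RPKM (-1.52). Of 10 E2F and DP factors, 4 were below -1, which is near the 34.3% of entries, and 0 above 1. The lowest was TFDP2, a dimer partner of E2F, with 27.9 and 3.12 RPKM (-2.81), followed by E2F4, a factor that acts mostly as a repressor, with 18.5 and 4.25 RPKM (-1.89).

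Replication genes, many of which are E2F targets, had the lowest median of the lists. Of 15 such genes 10 were below -1 and 0 above 1, with a median log2 ratio of -1.61 and, after centring, of -1.02. MCM3, a subunit of the replicative helicase, had 21.1 RPKM in the library labelled VCaP against 2.54 RPKM in VCaP ERα (-2.64). The licensing factor CDT1 had 8.07 and 0.492 RPKM (-2.60), and MCM4, MCM2 and MCM7 had log2 ratios of -2.55, -2.13 and -2.03. The replication clamp PCNA was much closer, with 42.8 and 34.0 RPKM (-0.32). Of 9 mitosis genes 5 were below -1 and 0 above 1, with a median of -1.06, or -0.47 after centring. AURKB had 10.3 and 0.579 RPKM (-2.84), AURKA had 15.7 and 3.25 RPKM (-1.98) and MYBL2 had 9.44 and 1.65 RPKM (-1.98). TOP2A was higher in VCaP ERα with 7.23 and 11.6 RPKM (0.61), and the proliferation marker MKI67 had 5.71 and 2.42 RPKM (-0.97).

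Genes that act on the CDK inhibitors, the cyclins or the kinases, or upstream of them, went in both directions. Of 9 parts of cell-cycle ubiquitin ligases, 2 were above 1 and 1 was below -1. SKP2, which marks p27 for degradation, had 1.02 and 4.39 RPKM (1.42), and its cofactor CKS1B had 3.35 and 17.4 RPKM (2.08). FBXO31, part of a ligase of cyclin D1, had 11.1 and 1.58 RPKM (-2.23), whereas FBXO4 of the same list had 2.00 and 4.41 RPKM (0.85). Of 8 CDK-modifying enzymes, 3 were below -1, again near that share, and the phosphatase CDC25B was the lowest with 25.7 and 1.78 RPKM (-3.26). Of 8 Polycomb genes, whose products repress the INK4 locus, 1 was above 1 and 2 were below -1. SUZ12 had 2.35 and 16.9 RPKM (2.42), EZH2 had 8.52 and 1.30 RPKM (-2.05) and CBX8 had 9.68 and 3.41 RPKM (-1.27). BMI1 stood on an entry shared with COMMD3, with 21.6 and 15.4 RPKM (-0.46). Of the 9 upstream factors 3 were above 1 and 4 below -1. Besides ESR1, SMAD3 and SMAD4, given above, they include MDM2, which encodes a ubiquitin ligase, with 28.3 and 4.53 RPKM (-2.40), and MYC, with 14.7 and 17.5 RPKM (0.24).

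**Figure D3:**
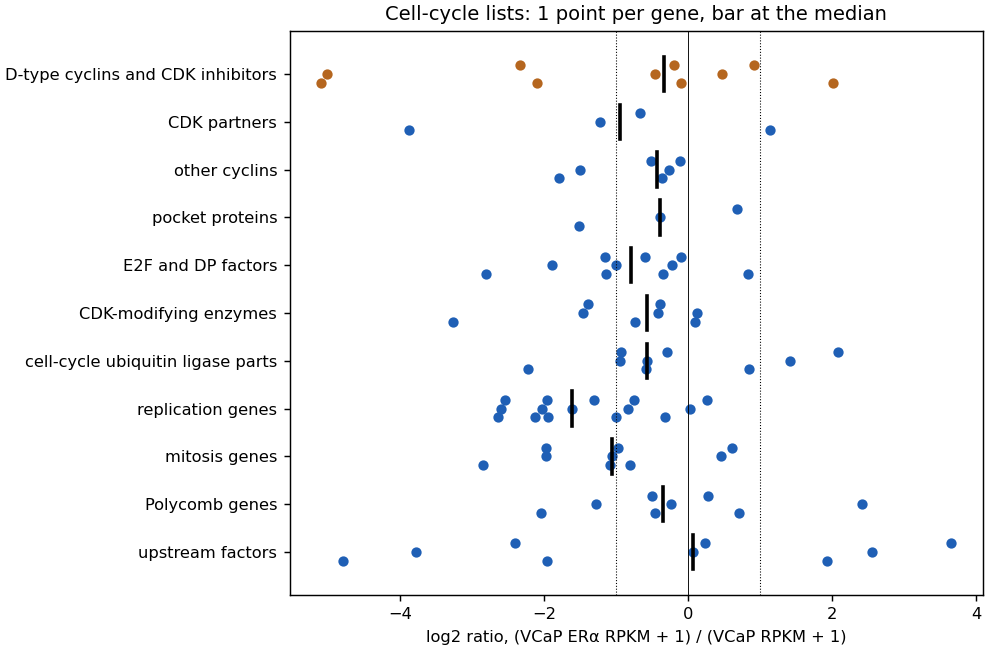
Log2 ratio of VCaP ERα over VCaP for each gene of the 10 cell-cycle lists (blue) and for the 10 D-type cyclins and CDK inhibitors (orange), with black bars at the medians, dotted lines at -1 and 1, and vertical offsets only for legibility. Replication genes have the lowest median (-1.61), and upstream factors spread from -4.80 for SMAD3 to 3.65 for ESR1.

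The surroundings of the genes with log2 ratios past 2 in size were compared through the nearest 3 entries on each side. On chromosome 9, next to the CDKN2A and CDKN2B pair, the 3 entries on the lower side (LOC554202, IFNE and IFNA1) were listed at 0 in both libraries. The 3 on the upper side were lower in VCaP ERα, as was CDKN2B. They were a second entry of CDKN2BAS, the antisense RNA of the locus, which stood at 3.87 RPKM in the library labelled VCaP but was listed at 0 in VCaP ERα, DMRTA1 with 5.20 and 0.440 RPKM, and AX747623 with 1.16 RPKM and a listed 0. A further CDKN2BAS entry, which overlaps CDKN2B, had 0.635 and 0.0354 RPKM. An entry of MTAP, whose span covers the whole pair, had 0.981 and 1.35 RPKM, so that it lay with CDKN2A in direction and not with CDKN2B. The libraries kept the strand, but whether counting used it was not given in the sources used here, so that reads of CDKN2B and of its antisense partner cannot be told apart.

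Around the other genes the neighbours did not share 1 direction. STK38, next but 1 to CDKN1A, had 50.0 RPKM in the library labelled VCaP against 1.86 RPKM in VCaP ERα (log2 ratio -4.16), whereas SFRS3, which lies between them, had 47.8 and 59.4 RPKM (0.31). In the imprinted region of chromosome 11, the neighbours of CDKN1C ran from -2.85 for PHLDA2 (32.4 and 3.63 RPKM), another imprinted growth-restraining gene, to 1.43 for BWRT. SLC22A18 lay with PHLDA2 (9.88 and 1.46 RPKM, -2.15), and the long antisense RNA KCNQ1OT1 had 2.06 and 1.46 RPKM (-0.31). Beside CCND1, ORAOV1 had 4.20 and 2.39 RPKM (-0.62), and FGF19 and FGF4 were listed at 0 in the library labelled VCaP and reached 0.213 and 1.02 RPKM in VCaP ERα. Of 6 neighbours of CCND3, 5 were lower in VCaP ERα, with log2 ratios from -1.05 to 0.22, none as low as CCND3 itself at -2.34. The entry AK124252, which overlaps the end of CCND1, had 1.15 and 1.98 RPKM (0.47). By chromosome, entries that reached 1 RPKM in 1 library had a median log2 ratio of -0.55 on chromosome 6, which holds CDKN1A and CCND3, -0.53 on chromosome 9 and -0.08 on chromosome 11, which holds CCND1 and CDKN1C.

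**Figure D4:**
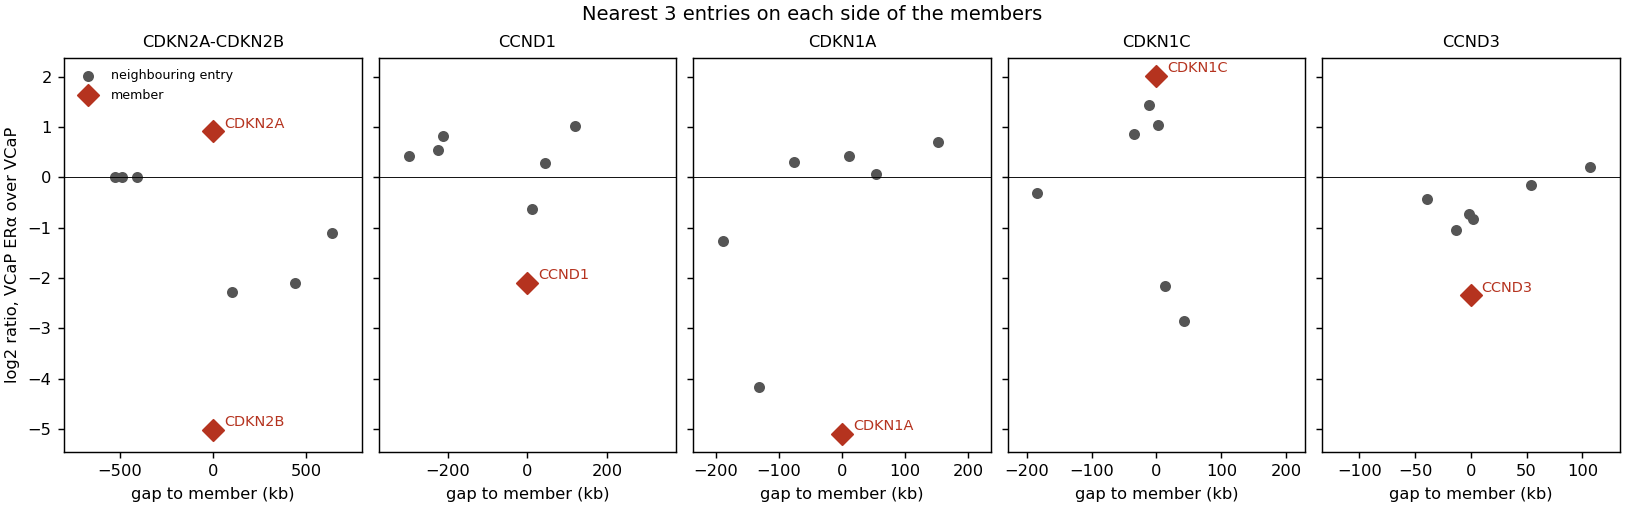
Log2 ratio of VCaP ERα over VCaP (vertical axis) for the nearest 3 entries on each side (grey) of the genes with a log2 ratio past 2 in size and of CDKN2A (red diamonds, placed at 0), against the gap in kb between the entries. CDKN2B and its 3 upper-side neighbours all lie below -1, while the neighbours of CCND1 lie between -0.62 and 1.01.

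The larger differences kept their directions however the ratio was computed. A smaller added value, a minimum of 1 RPKM and the summing of entries could not reverse them. Centring shifted each ratio by only 0.59. Kept directions are therefore largely fixed by the settings and do not measure spread between cultures. Under 6 alternatives, the log2 ratio of CDKN1A lay between -5.25 and -4.47, that of CDKN2B between -6.23 and -4.42, that of CCND3 between -2.56 and -1.60, that of CCND1 between -2.13 and -1.51 and that of CDKN1C between 2.02 and 3.11. CDKN2A stayed above 0, between 0.92 and 1.92, and CCND2 between 0.03 and 1.68. The sign of CDKN1B, CDKN2C and CDKN2D depended on the scaling, so that no direction is given for these 3 genes.

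**Figure D5:**
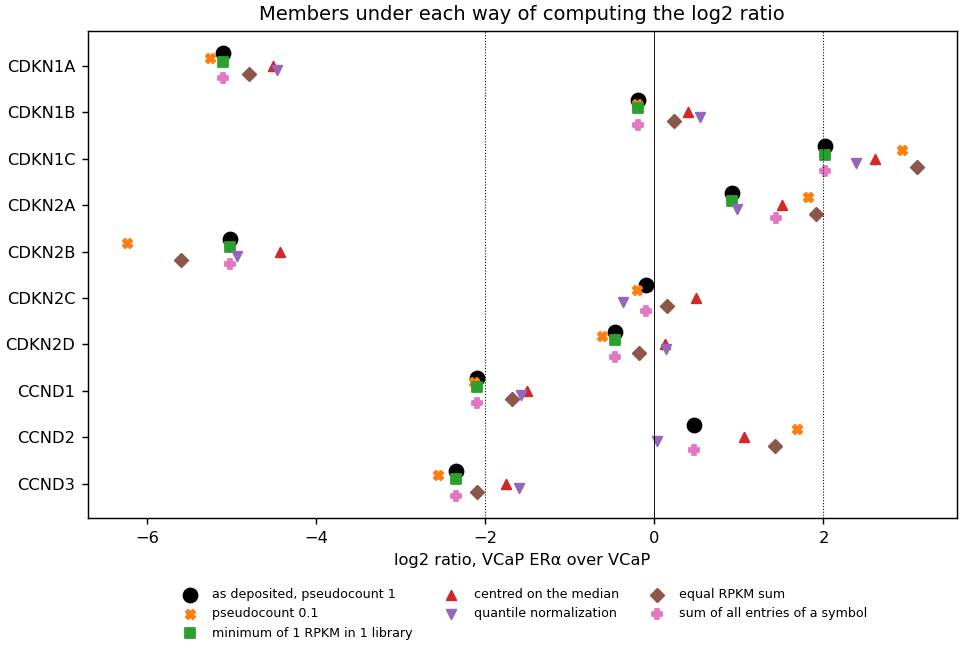
Log2 ratio of VCaP ERα over VCaP for each of the 10 genes as computed from the deposited values with a pseudocount of 1 RPKM (black) and under 6 alternatives (colours), with dotted lines at -2 and 2. CDKN1A and CDKN2B stay below -2 throughout, CCND1 and CCND3 lie on both sides of -2, and CDKN1B, CDKN2C and CDKN2D lie on both sides of 0.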

How the data were processed

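RNA from 1 culture of VCaP and 1 of VCaP ERα was sequenced by the authors in strand-specific libraries after removal of ribosomal RNA. The authors deposited RPKM values for 25932 entries with known-gene identifiers, without stating a normalization between libraries. The submitters' processing notes name CASAVA 1.8 and the builds hg18 and mm10. Coordinates are printed as in the files, for which hg18 is the only human build listed. The aligner and counter were not given in the sources used here, and neither was the depth, so no counting interval was computed.

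For each symbol the entry of highest mean was taken. Log2 ratios used a pseudocount of 1 RPKM, which understates the difference of low entries. No entry was filtered out. With 1 library per condition no test was made, and limits of 2 (as in the study) and 1 were used in both directions. Genes named were the members, from each list the 3 largest log2 ratios in size plus any past 2, the 3 nearest entries on each side of members past 2 in size, and a few further list genes (CCNB1, PCNA, TOP2A, MKI67, BMI1, MYC, SMAD4, FBXO4) chosen after their values were seen. CDK1 was read from its older symbol CDC2. The members and lists were chosen with earlier results of these data known. Results were recomputed with a pseudocount of 0.1 RPKM, for entries reaching 1 RPKM in 1 library, with centring on the median, quantile normalization, scaling to an RPKM sum of 1000000, and with the sum of all entries of a symbol. The values of some list genes are not reported here. Sequences of the human genes were not used here. The computation was tested on the values of the library labelled VCaP with known folds put into some entries, which checks the code only. Scripts ran under Python 3.11.15 with numpy 2.4.6, pandas 2.3.3 and, for plots, matplotlib 3.10.9.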

Additional observations from a re-analysis of the deposited data

Results flagged for a closer look

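The shorter CDKN2A entry was not used in the comparison, since the longer one had the higher mean. It had 1.15 RPKM in VCaP ERα and was listed at 0 in the library labelled VCaP, a log2 ratio of 1.11. It is given here because it lies outside the comparison and had a signal in VCaP ERα but none in the library labelled VCaP.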

How the results depend on the processing

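Of 202 results recomputed under the 6 alternatives, 138 kept their value within 0.58 log2 units or their count within 1.5 times, and 64 moved. Of 58 values of single members, 7 changed sign, all for CDKN1B, CDKN2C or CDKN2D. With a pseudocount of 0.1 the log2 ratios were 2.92 for CDKN1C, 1.82 for CDKN2A, -6.23 for CDKN2B and 1.68 for CCND2. Then 3 members lay above 1, 7426 entries above 1, 4238 above 2 and 2958 below -2, and 26 list genes below -2. With the minimum of 1 RPKM the median over the remaining members was -1.28. Centring gave -4.51 for CDKN1A, 0.39 for CDKN1B, 2.61 for CDKN1C, 1.51 for CDKN2A, -4.42 for CDKN2B, 0.49 for CDKN2C, 0.13 for CDKN2D, -1.51 for CCND1, 1.06 for CCND2 and -1.75 for CCND3, with a median of 0.26, 3 members above 1 and 2 below -2. It put 6269 entries above 1, 2686 below -1, 1238 above 2 and 868 below -2, and 13 list genes above 1, 22 below -1 and 8 below -2, with a list median of -0.16. Quantile normalization gave -4.47 for CDKN1A, 0.53 for CDKN1B, 0.14 for CDKN2D and -1.60 for CCND3, with 2 members below -2, 3098 entries below -1, 1003 above 2 and 997 below -2, and 13 list genes above 1 and 7 below -2. Scaling to equal sums gave 3.11 for CDKN1C, 1.92 for CDKN2A and 1.42 for CCND2, with 3 members above 1, 7093 entries above 1, 3107 above 2 and 13 list genes above 1. Summing all entries of a symbol put 2 members above 1. A lower pseudocount and a larger scale both widen the ratios of low entries by construction. Centring shifts every log2 ratio by 0.59, which is past the tolerance, so all its ratios and medians moved by construction. The minimum of 1 RPKM could not change the log2 ratio of any entry. Summing entries could change only genes that stand on more than 1 entry. The numbers of kept and moved results are therefore partly fixed by the settings. No paired analysis was possible because each condition had 1 library. The unknown depth limits the genes below 1 RPKM most, CDKN2C and CCND2 in both libraries.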

Other observations

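The mouse orthologues of the 10 genes were read in the libraries of wild-type and NEAT1 knockout (KO) embryonic fibroblasts, 1 library each, from poly-A RNA, with no test. Cdkn1a stood at 391 RPKM in wild type against 609 RPKM in KO (log2 ratio of KO over wild type 0.64) and was the highest of the 10 in both. Ccnd1 had 91.6 and 57.8 RPKM (-0.65), Cdkn2a had 51.2 and 32.1 RPKM (-0.66) and Cdkn2b had 43.9 and 33.0 RPKM (-0.40). Cdkn2a and Cdkn2b were thus at similar levels within each fibroblast library. Ccnd2 had 171 and 166 RPKM and Ccnd3 had 90.8 and 88.7 RPKM, and Ccnd2 made up 48.4% and 53.2% of the summed RPKM of the D-type cyclins. Cdkn1c had 4.08 and 5.46 RPKM (0.35), Cdkn2d 9.53 and 11.5 RPKM (0.25), Cdkn1b 10.3 and 10.9 RPKM (0.07) and Cdkn2c 3.58 and 3.09 RPKM (-0.16). Entries that reached 1 RPKM in each fibroblast library had a median log2 ratio of -0.06.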
